A study of Mus musculus with 12 samples.

Results

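Eomes, Gsc, Lhx1, Mixl1, Evx1, Mesp1, Tbx6, Foxc1, Foxc2 and Meox1 are 10 transcription factors of the primitive streak and of the mesoderm that leaves it. They were taken by name, as every probe set whose annotation gives one of these symbols alone, which found all 10 among 18193 genes and 13 probe sets among 45037. Eomes, Lhx1 and Foxc1 have 2 probe sets each and the others have 1. The arrays were Affymetrix mouse oligonucleotide arrays, 12 in all and 2 for each of 6 groups. The groups were wild-type (WT) and Terc-/- (KO) C57BL/6 embryonic stem (ES) cells at day 0, and cells of both genotypes after 8 and 15 days of differentiation. Terc is the RNA template of telomerase, and the KO lines are labelled G3/4, a late generation without it. The day 0 arrays came from the WT lines N12 and N33 at passage 12 and the KO lines F35 and A49 at passage 11, so that each group at day 0 holds 2 lines. The labels name no line for days 8 and 15, so p-values there speak only for these samples. They rest on a spread pooled over the replicates of all 6 groups, day 0 included. ES cells were kept on mitomycin-treated fibroblast feeders, aggregated in hanging drops without LIF for 4 days and then plated, and each later sample held 10 to 15 embryoid bodies per well. The comparisons address whether these factors differed between genotypes before and during differentiation.

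In the gastrulating embryo, Nodal, Wnt and Bmp signals turn on the T-box factor Eomes and the homeobox factor Mixl1 in epiblast cells that enter the streak. Cells at the front of the streak go on to Gsc and Lhx1, factors of the organizer and of the first endoderm, while Evx1 marks the posterior streak and Mesp1 the nascent mesoderm, including heart precursors. Tbx6 acts in presomitic mesoderm, and Foxc1, Foxc2 and Meox1 act in somites and neighbouring mesoderm. In embryoid bodies the streak genes are known to appear for a short time and then to be shut off. Lhx1 is also made in kidney precursors and in neurons, Eomes in extraembryonic and neural cells, and Foxc1 and Foxc2 in vessels and fibroblast-like mesenchyme, so the label streak and mesoderm is not specific to 1 cell type.

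The promoters of the factors that the comparisons turn on are shown first, as the 250 bases before the annotated start in RefSeq (GRCm38.p6), 5′ to 3′ on the gene's strand. Of the 10 genes, 7 had an entry, and Mixl1, Foxc2 and Meox1 did not. Capitals mark exact matches, on either strand, to a T-box half-site (AGGTGTGA), a Tcf/Lef site (CTTTGAT), a Foxh1 site (AATCCACA), a Smad palindrome (GTCTAGAC), a forkhead core (TGTTTAC), a homeodomain core (TAATTA) or a TATA box (TATAAA). The first 3 belong to Eomes (chr9:118477939-118478188, plus strand), Lhx1 (chr11:84525535-84525784, minus strand) and Gsc (chr12:104473237-104473486, minus strand), the genes that were higher in KO cells at day 15.
Eomes: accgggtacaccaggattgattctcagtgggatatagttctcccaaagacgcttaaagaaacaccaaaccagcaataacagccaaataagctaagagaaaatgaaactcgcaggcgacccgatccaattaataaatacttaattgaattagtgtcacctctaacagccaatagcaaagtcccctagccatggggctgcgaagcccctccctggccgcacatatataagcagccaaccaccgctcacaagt
Lhx1: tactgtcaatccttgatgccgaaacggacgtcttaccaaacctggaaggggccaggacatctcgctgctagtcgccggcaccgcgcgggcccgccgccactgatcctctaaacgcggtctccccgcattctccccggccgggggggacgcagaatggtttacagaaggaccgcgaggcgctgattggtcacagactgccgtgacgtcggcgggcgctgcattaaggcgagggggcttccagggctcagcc
Gsc: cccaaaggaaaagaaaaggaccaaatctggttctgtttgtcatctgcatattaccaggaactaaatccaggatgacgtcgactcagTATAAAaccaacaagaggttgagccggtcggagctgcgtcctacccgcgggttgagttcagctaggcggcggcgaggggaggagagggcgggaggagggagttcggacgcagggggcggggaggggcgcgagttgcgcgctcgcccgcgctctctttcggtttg
The next pair belong to Evx1 (chr6:52313248-52313497, plus strand) and Mesp1 (chr7:79793591-79793840, minus strand), the genes with the largest KO deficits at day 8.
Evx1: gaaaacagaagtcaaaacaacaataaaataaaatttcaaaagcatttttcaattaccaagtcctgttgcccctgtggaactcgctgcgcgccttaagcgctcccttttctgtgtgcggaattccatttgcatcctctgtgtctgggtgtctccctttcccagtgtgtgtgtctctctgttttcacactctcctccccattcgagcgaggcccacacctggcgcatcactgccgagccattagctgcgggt
Mesp1: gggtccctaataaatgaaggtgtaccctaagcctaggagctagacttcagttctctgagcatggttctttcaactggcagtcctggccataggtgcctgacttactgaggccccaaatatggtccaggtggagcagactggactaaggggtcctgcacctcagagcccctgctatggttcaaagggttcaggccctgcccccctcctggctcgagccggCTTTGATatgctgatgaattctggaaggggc
Only a TATAAA in Gsc, 164 bases before the start, and a CTTTGAT in Mesp1, 31 bases before it, were matched in these 5 windows. Over 32851 RefSeq promoters of this length, 12.4% hold the TATA box letters and 3.205% the Tcf/Lef letters. The T-box letters, held by 1.12%, stood in none of the 5 windows. Mesp1 has them 6 bases past its start, on the opposite strand, in the 20 bases at chr7:79793571-79793590 (minus strand), where capitals mark the match.
Mesp1 start: ccgctTCACACCTagggctc
The Foxh1 letters stood in 0.718% of all promoters, the Smad letters in 0.167%, the forkhead letters in 3.17% and TAATTA in 4.84%. The matches are descriptions of letters, and no binding was measured.

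Values are linear intensities, the brightness of a probe set after the authors' scaling. The day 0 arrays were scaled apart, with medians of 113.64 to 117.02 against 50.63 to 53.09 at days 8 and 15, so intensities were compared within a day or between days 8 and 15, and day 0 is set beside the later days only by percentile, the rank of a probe set among the 45037 of its array. Differences were tested on the log2 scale with limma, with adjusted p-values over all 45037 probe sets and a threshold of 0.05. RNA was taken from whole cultures, so fewer cells of a type and less RNA per cell cannot be told apart. The KO label could not be checked on Terc, which no probe set measures alone. The labelled ES cells carried their markers, with 7 of 7 pluripotency genes at intensities of 1346 or more on every day 0 array.

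The WT day 8 replicates stood apart from each other more than those of any other group, with an SD of the log2 difference between replicates of 0.377 over all probe sets against 0.22 to 0.326 elsewhere. The streak factors were at the edge of that gap. On the 8 probe sets of Eomes, Gsc, Lhx1, Mixl1, Evx1 and Mesp1, replicate 1 exceeded replicate 2 by log2 1.06 for Evx1 to 2.01 for Mesp1, and each of the 8 gaps lay at or above the 99.4th percentile of all probe sets. Foxc2 was opposite, at −1.22 and the 0.893rd percentile. The 9 fibroblast markers summed to 5915 in replicate 1 and 25169 in replicate 2, and the 7 pluripotency markers to 7462 and 5105. The day 8 differences of the factors, their called changes in WT cells and the day 8 calls in other gene lists are therefore also given without each of its replicates, and the part of cell makeup in them was not tested.

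**Figure D1:**
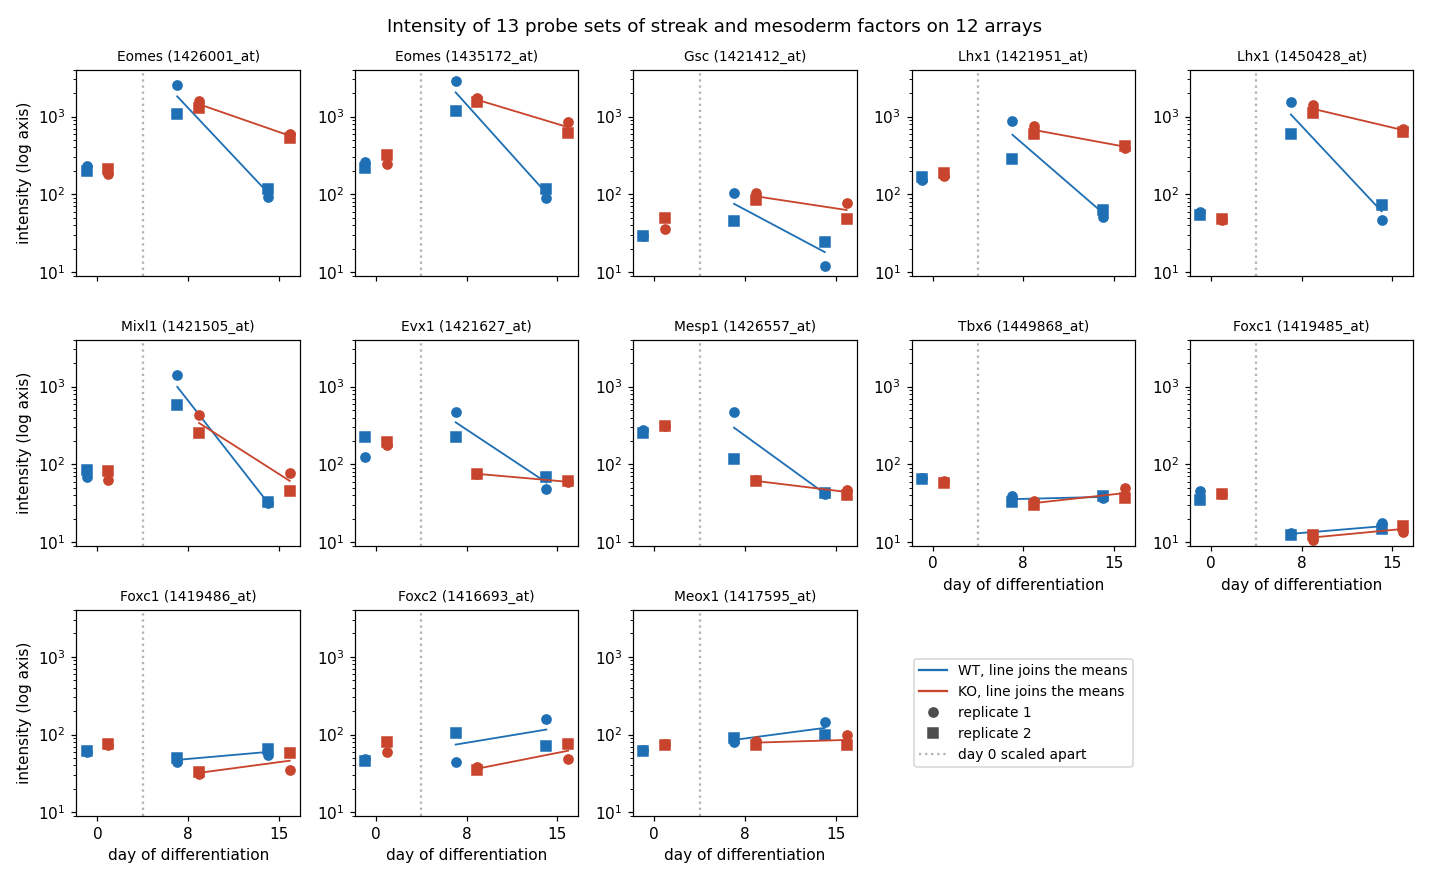
Intensity (log axis) of the 13 probe sets on the 12 arrays by day of differentiation, WT in blue and KO in red, circles replicate 1 and squares replicate 2, with a line joining the means of days 8 and 15. Day 0 lies left of the dotted line because its arrays were scaled apart. Eomes and Lhx1 fall from 282 or more at day 8 to 118 or less at day 15 in WT cells and read 397 or more in KO cells, whereas Tbx6 and both Foxc1 probe sets read 75.5 or less on every array.

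In ES cells at day 0 no factor passed the test between genotypes. None of the 13 probe sets passed, against 0.0488% of all probe sets, and the log2 differences (KO minus WT) ran from −0.27 for Lhx1 (1450428_at) to 0.57 for Foxc2, with adjusted p of 0.737 to 0.979. Over all probe sets, 22 passed and 3870 had an unadjusted p under 0.05. Both KO arrays were above both WT arrays on 6 of the 13 and below them on 2, and the arrays overlapped on 5, where 29.5% of all probe sets had both KO arrays above and 18.4% had both below. Mesp1 read 273 and 254 in WT and 315 and 316 in KO cells. Eomes (1435172_at) read 260 and 220 in WT and 244 and 320 in KO cells, and Evx1 read 124 and 226 in WT and 180 and 195 in KO cells. Only Mesp1 of these 3 had both KO arrays above both WT arrays, by a log2 difference of 0.26 ± 0.49 (SE, n = 2 a group).

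By rank of the brightest probe sets, Eomes was the highest of the factors at day 8 in both genotypes and Gsc the lowest at day 0. The percentile of Eomes in WT cells was 68.8 at day 0, 96.0 at day 8 and 63.8 at day 15. In KO cells it was at 71.3, 96.0 and 91.2. Lhx1 (1421951_at) went from 59.9 to 86.0 and 51.8 in WT cells and from 62.1 to 90.4 and 85.5 in KO cells. Its other probe set, 1450428_at, was at 26.5 in WT and 20.1 in KO cells at day 0, 92.2 and 94.8 at day 8, and 52.4 and 90.6 at day 15. Mixl1 moved from 36.5 to 91.8 and 37.8 in WT cells, and from 33.5 to 82.4 and 52.6 in KO cells. Gsc went from 9.94 to 56.0 and 21.4 in WT cells and from 17.3 to 62.7 and 53.3 in KO cells. These 4 genes therefore ranked higher at day 8 than at day 0 in both genotypes, as did the brightest probe sets of Tbx6, Foxc1, Foxc2 and Meox1.

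Evx1 and Mesp1 ranked in another way. In WT cells Evx1 was at percentile 60.2 at day 0 and at 81.3 at day 8, but in KO cells at 63.1 and 58.4. Mesp1 was at 70.7 and 76.5 in WT cells, where the replicates at day 8 spanned 66.4 to 86.5, and at 73.6 and 53.9 in KO cells. By day 15 both lay between 44.8 and 53.0 in either genotype. Tbx6, Foxc1, Foxc2 and Meox1 lay at or under percentile 34.5 at day 0 and between 37.4 and 66.5 on their brighter probe sets later. Ranks against day 0 are a description without a test.

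**Figure D2:**
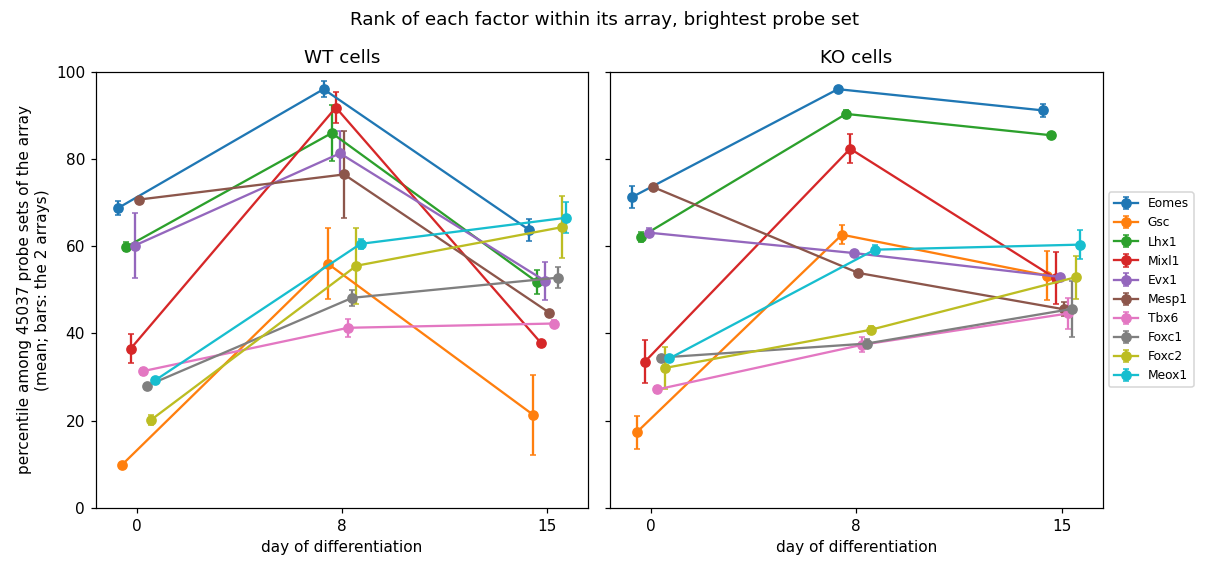
Percentile of each factor's brightest probe set among the 45037 probe sets of its array (vertical axis, mean of 2 arrays, bars span both) by day of differentiation, WT left and KO right. Eomes, Lhx1, Gsc and Mixl1 peak at day 8 in both panels, with Eomes at 91.2 and Lhx1 at 85.5 at day 15 in KO cells and at 63.8 and 51.8 in WT cells. The means of Evx1 and Mesp1 are higher at day 8 than at day 0 in WT cells and lower in KO cells.

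At day 8 the posterior streak factor Evx1 was lower in KO cells, and no other factor passed the test. Of the 13 probe sets, Evx1 passed as lower in KO cells, where 0.615% of all probe sets were lower and 0.513% higher, and none passed as higher. The median log2 difference of the 13 was −0.18, against 0.03 over all probe sets. Evx1, the posterior streak factor, read 469 and 226 in WT cells and 75.7 and 75.5 in KO cells. Both KO arrays were below both WT arrays, by a log2 difference of −2.11 ± 0.34 (SE, n = 2 a group, adjusted p = 0.0239), and the ratio of the means, WT over KO, was 4.60. The difference was −1.58 (adjusted p = 0.0178) without WT replicate 1 and −2.63 (0.00964) without WT replicate 2. The call ended without either KO replicate, at adjusted p of 0.175 and 0.158.

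Mesp1, the factor of nascent mesoderm, read 475 and 118 in WT cells and 62.3 and 60.4 in KO cells at day 8. The groups did not overlap, a separation not counted over all probe sets at day 8, and the difference of −1.95 ± 0.49 (SE) had an adjusted p of 0.108. Without WT replicate 1 it was −0.94 (adjusted p = 0.00544) and without WT replicate 2 it was −2.95 (adjusted p = 2e-05), where the gap between those replicates no longer enters the spread. Mixl1, a homeobox factor of the streak, read 1413 and 575 in WT cells and 426 and 256 in KO cells. It also did not overlap, at −1.45 ± 0.41 (SE, adjusted p = 0.146), and was −0.80 (0.245) or −2.10 (0.0387) without WT replicate 1 or 2.

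Eomes, which specifies mesoderm and definitive endoderm, read 2902 and 1183 in WT cells and 1736 and 1539 in KO cells on 1435172_at at day 8. On 1426001_at it read 2557 and 1065 in WT and 1579 and 1300.1 in KO cells. The KO values lay between the WT values on both, with log2 differences of −0.18 ± 0.36 and −0.20 ± 0.32 (SE). These were 0.47 and 0.43 without WT replicate 1 and −0.83 and −0.84 without WT replicate 2, and neither passed. Lhx1, a LIM-homeobox factor of the organizer, read 1518 and 604 in WT and 1399.8 and 1116 in KO cells on 1450428_at. On 1421951_at it read 882 and 282 in WT and 749 and 593 in KO cells. Its differences of 0.38 ± 0.36 and 0.42 ± 0.41 (SE) did not pass. They were 1.05 (adjusted p = 0.026) and 1.24 (adjusted p = 0.00393) without WT replicate 1, and −0.28 and −0.40 without WT replicate 2. Gsc, the homeobox factor of the organizer, read 105 and 46.0 in WT and 105 and 83.8 in KO cells, a difference of 0.43 ± 0.43 (SE) that was 1.03 without WT replicate 1 and −0.16 without WT replicate 2.

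Because the WT replicates differed in all of these factors together, each was also set against Eomes (1435172_at) on its own array, a description chosen after the values were seen. For Evx1 this log2 ratio at day 8 was −2.63 and −2.39 in WT cells and −4.52 and −4.35 in KO cells. For Mixl1 it was −1.04 on both WT arrays and −2.03 and −2.59 on the KO arrays. For Mesp1 it was −2.61 and −3.33 in WT cells and −4.80 and −4.67 in KO cells. Relative to Eomes these 3 factors were lower on both KO arrays than on both WT arrays, as their intensities already were. The share of all probe sets so separated was not counted at day 8, and was 18.4% at day 0. The ratios are therefore no second support. For Lhx1 (1450428_at) the ratio was higher on the KO arrays, at −0.31 and −0.46 against −0.93 and −0.97, and for Gsc at −4.05 and −4.20 against −4.79 and −4.68.

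At day 15 Lhx1, Eomes and Gsc were higher in KO cells. Of the 13 probe sets, 5 passed as higher, the 5 of these 3 genes, and none as lower, where 6.45% of all probe sets were higher and 6.45% lower. The median log2 difference of the 13 was 0.15, against 0.04 over all probe sets. Lhx1 on 1450428_at read 47.2 and 73.7 in WT cells and 693 and 642 in KO cells, a log2 difference of 3.50 ± 0.36 (SE, n = 2 a group, adjusted p = 4.47e-04). On 1421951_at it read 50.8 and 63.5 in WT and 397 and 421 in KO cells, a difference of 2.85 ± 0.41 (SE, adjusted p = 0.00248). The ratios of the means, KO over WT, were 11.0 and 7.16, with 1 WT value of each probe set just under its array median. Every KO array exceeded every WT array on both probe sets, which adds nothing to the calls made on the same values.

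Eomes on 1435172_at read 89.2 and 118 in WT cells and 848 and 609 in KO cells at day 15. The difference was 2.81 ± 0.36 on the log2 scale (SE, n = 2 a group, adjusted p = 0.00136), or 7.05 as a ratio of means. On 1426001_at it read 91.2 and 118 in WT and 598 and 534 in KO cells, a difference of 2.45 ± 0.32 (SE, adjusted p = 0.00152) and a ratio of 5.41. Both probe sets showed groups far apart relative to their spread. Gsc read 12.0 and 24.2 in WT and 78.1 and 47.6 in KO cells, a difference of 1.84 ± 0.43 (SE, adjusted p = 0.0226). Both WT values and that of KO replicate 2 lay under the medians of their arrays, and whether they lie above background is not known. The Gsc call ended without WT replicate 1 (adjusted p = 0.132), without KO replicate 1 (0.148) and with only the 4 arrays compared in the fit (0.0566).

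The other streak factors were low in both genotypes at day 15. Mixl1 read 31.8 and 32.4 in WT and 76.8 and 46.0 in KO cells, which did not overlap but did not pass (0.89 ± 0.41, SE, adjusted p = 0.208). Evx1 read 48.4 and 69.0 in WT and 59.1 and 60.4 in KO cells, a log2 difference of 0.05 ± 0.34 (SE). Mesp1 read 42.1 and 42.5 in WT and 47.5 and 41.0 in KO cells, a difference of 0.06 ± 0.49 (SE). The KO values of Evx1 lay inside the WT range, and those of Mesp1 lay on either side of the WT values.

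Among the mesoderm factors of somites and vessels, no probe set passed in any comparison. Foxc2, a forkhead factor of somites and lymphatic vessels, read 44.7 and 104 in WT and 37.8 and 35.1 in KO cells at day 8. Day 15 values were 159.8 and 72.0 in WT and 48.8 and 75.0 in KO cells, and the log2 differences were −0.90 ± 0.44 and −0.83 ± 0.44 (SE, adjusted p = 0.406 and 0.276). At day 15 the KO replicate at 75.0 lay above the WT replicate at 72.0. At day 8 the Foxc2 difference was −1.51 without WT replicate 1 and −0.30 without WT replicate 2. Meox1, a homeobox factor of somites, read 81.2 and 89.3 in WT and 83.1 and 74.3 in KO cells at day 8, a difference of −0.18 and −0.047 without WT replicate 1 and 2. Day 15 values were 146 and 97.4 in WT and 98.0 and 72.5 in KO cells (−0.50 ± 0.19, SE, adjusted p = 0.121). Without WT day 15 replicate 2 it was −0.79 (adjusted p = 0.0197).

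Foxc1 on its brighter probe set, 1419486_at, read 43.9 and 50.6 in WT and 31.0 and 33.3 in KO cells at day 8 (−0.55 ± 0.20, SE, adjusted p = 0.236), and −0.65 or −0.45 without WT replicate 1 or 2. Day 15 values were 54.1 and 65.5 in WT and 35.0 and 57.2 in KO cells (−0.41 ± 0.20, SE, adjusted p = 0.217), and without KO replicate 2 the difference was −0.76 (adjusted p = 0.0238). Its other probe set, 1419485_at, ran from 10.7 to 17.5 at days 8 and 15, with day 8 differences of −0.10 and −0.21 without WT replicate 1 and 2. Tbx6, the T-box factor of presomitic mesoderm, read 38.8 and 32.8 in WT and 33.9 and 29.9 in KO cells at day 8, and 37.5 and 39.0 in WT and 49.1 and 36.6 in KO cells at day 15. Its differences were −0.16 ± 0.15 and 0.15 ± 0.15 (SE), and that of day 8 was −0.042 or −0.28 without WT replicate 1 or 2. Tbx6 and both Foxc1 probe sets lay near or below the array median at days 8 and 15, detection calls were not used, and whether these values lie above background is not known.

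**Figure D3:**
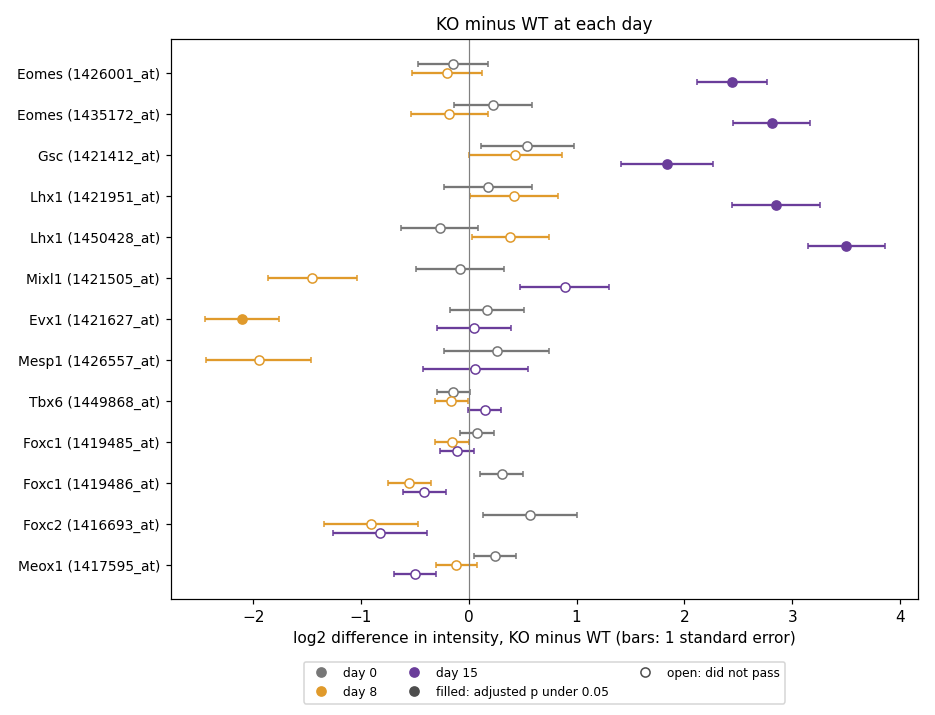
Log2 difference in intensity, KO minus WT (horizontal axis), for the 13 probe sets at day 0 (grey), day 8 (orange) and day 15 (purple), with bars of 1 standard error and filled points for adjusted p under 0.05 in limma. At day 15 the filled points are those of Eomes, Gsc and Lhx1, from 1.84 to 3.50, and at day 8 only Evx1 is filled, at −2.11.

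From day 8 to day 15 the streak factors fell in WT cells. Of the 13 probe sets, 8 passed as lower and none as higher, where 9.16% of all probe sets were lower and 6.89% higher, and the 8 are those of Mixl1, Eomes, Lhx1, Evx1, Mesp1 and Gsc. The log2 change of Mixl1 was −4.81 ± 0.41 (SE, n = 2 a group, adjusted p = 1.99e-04), from 1413 and 575 to 31.8 and 32.4, which lie under the array medians and are not known to lie above background. Those of the Eomes probe sets were −4.18 ± 0.36 and −3.99 ± 0.32 (SE, adjusted p = 1.96e-04 and 1.31e-04), and those of Lhx1 were −4.02 ± 0.36 and −3.13 ± 0.41 (SE, adjusted p = 1.99e-04 and 0.00129). Evx1 changed by −2.49 ± 0.34 (SE, adjusted p = 0.00141), Mesp1 by −2.49 ± 0.49 (0.00916) and Gsc by −2.03 ± 0.43 (0.0121). On each of these probe sets both day 15 arrays were below both day 8 arrays. This adds no support, because the probe sets were those that passed as lower in the same comparison.

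Without WT day 8 replicate 1 the changes of Mixl1, Eomes, Lhx1, Evx1 and Mesp1 in WT cells ran from −4.16 for Mixl1 to −1.48 for Mesp1, and without replicate 2 from −5.46 to −3.02 for Evx1, and all 7 probe sets still passed. The Gsc call ended without replicate 1 (−1.44, adjusted p = 0.0607) and held without replicate 2 (−2.62, 0.00266). Meox1, Foxc2, Foxc1 and Tbx6 had positive log2 changes of 0.10 to 0.65 that did not pass. With only the 4 WT arrays in the fit, 4 probe sets passed as lower, where 0.226% of all probe sets did, those of Mixl1 and Eomes and 1450428_at of Lhx1.

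In KO cells no probe set passed over the same interval, where 0.02% of all probe sets did so in either direction. Over all probe sets 9 passed and 4847 had an unadjusted p under 0.05. Mixl1 had the largest KO change among the 13, −2.47 ± 0.41 on the log2 scale (SE, n = 2, adjusted p = 0.113). The Eomes changes were −1.19 ± 0.36 and −1.34 ± 0.32 (SE), with ratios of means, day 8 over day 15, of 2.25 and 2.54 against 19.8 and 17.3 in WT cells. The Lhx1 changes were −0.91 ± 0.36 and −0.70 ± 0.41 (SE), that of Gsc −0.62, that of Evx1 −0.34 and that of Mesp1 −0.48. With only the 4 KO arrays in the fit, 5 probe sets passed as lower, where 1.37% of all probe sets did, Mixl1 (adjusted p = 0.0111), Eomes and Lhx1 among them.

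**Figure D4:**
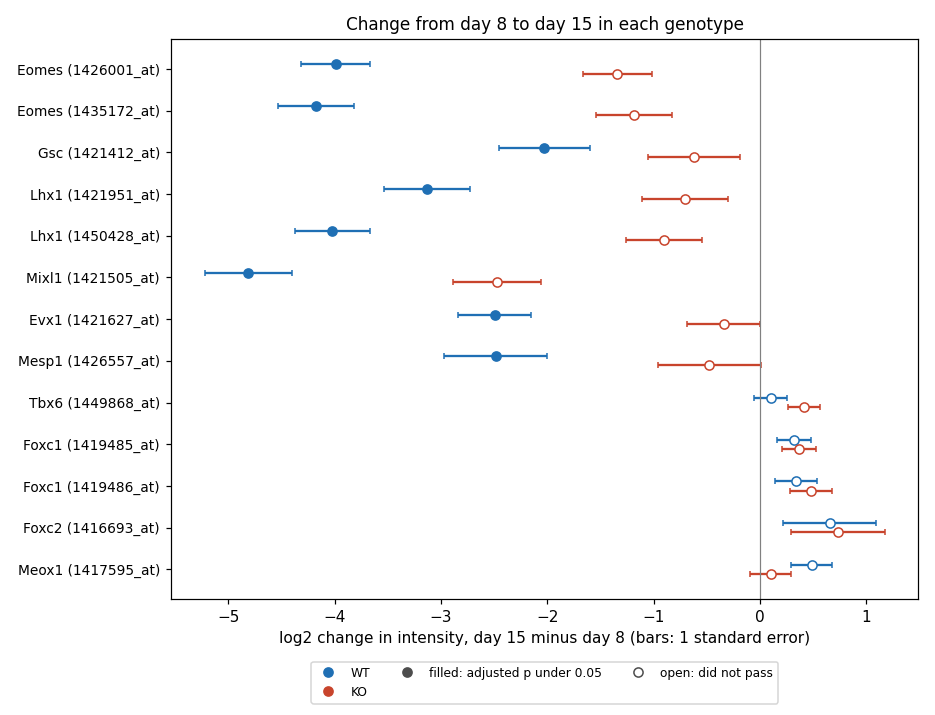
Log2 change in intensity from day 8 to day 15 (horizontal axis) of the 13 probe sets in WT (blue) and KO (red) cells, with bars of 1 standard error and filled points for adjusted p under 0.05 in limma. In WT cells 8 points are filled, from −2.03 to −4.81, where 9.16% of all probe sets passed as lower. In KO cells none is filled, where 0.02% of all probe sets passed in either direction, and Mixl1 is furthest left at −2.47.

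The difference between genotypes in this change was tested itself. Of the 13 probe sets, 3 passed with a less negative change in KO cells, where 0.138% of all probe sets passed as higher and 0.284% as lower. They were Lhx1 on 1450428_at (3.12 ± 0.50 on the log2 scale, SE, adjusted p = 0.0381) and Eomes on 1435172_at and 1426001_at (2.99 ± 0.51 and 2.65 ± 0.46, adjusted p = 0.0465 and 0.0483). Lhx1 on 1421951_at, Mixl1, Evx1 and Mesp1 had differences of 2.43, 2.34, 2.15 and 2.01 with adjusted p of 0.138, 0.153, 0.114 and 0.282. For Evx1 and Mesp1 this difference comes with WT values above those of KO cells at day 8 and like values at day 15, whereas for Eomes and Lhx1 it comes with KO values above those of WT cells at day 15. Calls at day 15, over time and of this difference share arrays and are not independent of each other. The 3 calls held without either WT day 8 replicate. They ended without either KO day 8 replicate (adjusted p = 0.129 to 0.191), without either KO day 15 replicate (0.0979 to 0.197) and without WT day 15 replicate 1 (0.081 to 0.12).

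Other genes of the streak and of its derivatives were read from the brightest probe set of each gene, in lists chosen with earlier results of these data known. Over 18193 genes, 0.77% were higher and 0.77% lower in KO cells at day 8, and 8.77% were higher and 8.31% lower at day 15. The median log2 difference over all genes was 0.03 at day 8 and 0.04 at day 15. At day 0, where 0.033% of genes passed in either direction, 1 listed gene passed, Aldh1a2, an enzyme of retinoic acid synthesis. It read 70.6 and 62.6 in WT and 221 and 208 in KO cells (1.69 ± 0.16, SE, adjusted p = 0.014). The list medians at day 0 ran from −0.06 to 0.17, apart from 0.94 for the fibroblast markers, and that over all genes was 0.04.

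Of 20 streak signals and partners, 19 were measured. At day 8, 1 was higher (Gdf3, a Nodal-related ligand, by 0.96) with a list median of 0.02, and at day 15, 10 were higher and 1 lower with a median of 0.59. The largest were Tdgf1, the Nodal co-receptor, which the pluripotency list also holds (4.24 ± 0.41, SE, adjusted p = 5.11e-04), Fgf4 (3.25 ± 0.54, 0.00556) and Nodal (3.00 ± 0.28, 2.81e-04). Nodal read 151 and 257 in WT and 1791 and 1383 in KO cells at day 15. These 3 genes and Gdf3 were also high in ES cells. Day 0 means in WT and KO cells were 9148 and 9895 for Tdgf1 and 2439 and 2855 for Fgf4. Those of Nodal were 1660 and 2747, and those of Gdf3 were 1541 and 1820. Bmp4, a ligand of posterior and ventral mesoderm, was the 1 lower gene, reading 1428 and 1449 in WT and 682 and 755 in KO cells (adjusted p = 0.0122).

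Of 15 organizer and definitive endoderm genes, 14 were measured, of which the endoderm list also holds Foxa2 and Sox17. At day 8, 4 were higher (Cer1, Lefty1, Hhex and Sfrp1) and none lower (median 0.41), and at day 15, 5 were higher and 1, the Wnt inhibitor Sfrp1, was lower (median 0.69). Otx2, a head homeobox factor, was higher at day 15 by 3.35 ± 0.39 (SE, adjusted p = 9.32e-04), reading 81.1 and 118 in WT and 1037 and 959 in KO cells. Cer1, a secreted Nodal and Bmp inhibitor, was higher at both days, by 1.61 ± 0.21 at day 8 (SE, adjusted p = 0.00908) and 2.82 ± 0.21 at day 15 (6.24e-05). Lefty1, a Nodal inhibitor, was also higher at both days, by 1.27 ± 0.17 (0.0088) and 2.43 ± 0.17 (4.11e-05). Lefty1 was also high in ES cells, with day 0 means of 3129 in WT and 3499 in KO cells. Those of Sfrp1 were 507 and 699, of Hhex 313 and 315, of Otx2 189 and 206 and of Cer1 51.1 and 44.9. Cer1 read 87.6 and 61.0 in WT and 202 and 247 in KO cells at day 8.

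Among mesoderm genes, those listed for lateral plate, extraembryonic and cardiac mesoderm were lower in KO cells wherever they passed. Of 20 lateral plate, extraembryonic and cardiac mesoderm genes, all measured, 3 were lower at day 8 (median −0.66) and 8 at day 15 (median −0.51), and none was higher. Kdr is also in the endothelial list and Gata4 in the endoderm list. Kdr, a receptor of VEGF (−2.35 on the log2 scale), Hand2, a heart and limb factor (−2.33), and Pdgfra (−2.26) had the largest differences at day 15, and Pdgfra was at −1.67 at day 8. Of 20 presomitic and somite genes, 19 were measured. At day 8, 1 was lower (Rspo3, −1.22) with a median of −0.05, and at day 15, 2 were lower and 2 higher with a median of 0.14. They include Aldh1a2 (−1.19, lower here and higher at day 0), Tbx18 (−1.10) and Lfng, a modifier of Notch (0.69). Of 10 intermediate mesoderm genes, 9 were measured, none passed at day 8, and at day 15 Osr1 (−2.07) and Wt1 (−2.06) were lower and Sall1 (1.98) was higher, with a median of 0.03.

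The day 8 calls of these lists were not counted without either KO array, an omission that ended the Evx1 call. They were counted without each WT day 8 replicate, an alternative chosen after the data were seen. Without replicate 1, 3.34% of genes were higher and 4.55% lower. Then 3 of the streak signals were higher (Fgf8, Gdf3 and Foxh1) and 1 lower, 4 organizer genes were higher (Cer1, Hhex, Lefty1 and Otx2, but not Sfrp1), 5 lateral plate genes and 1 presomitic gene were lower, and no intermediate mesoderm gene passed. Without replicate 2, 0.379% of genes were higher and 0.643% lower. Then 1 streak signal was higher (Gdf3) and 1 lower (Snai1), 3 organizer genes were higher (Cer1, Hhex and Lefty1), and 2 lateral plate, 3 presomitic and 1 intermediate mesoderm gene were lower. Gdf3, Cer1, Hhex, Lefty1, Rspo3 and Pdgfra passed in the same direction with all arrays and without either replicate. The fibroblast markers went from 1 lower to 7 without replicate 1 and 0 without replicate 2, and the endoderm markers from none passed to 3 lower and 1 higher without replicate 1 and 1 lower without replicate 2. Of the pluripotency, neuron, endothelial and kidney markers, 1, 2, 0 and 0 were higher and 0, 0, 1 and 0 lower without replicate 1, and without replicate 2 only 1 kidney marker, Six2, passed, as lower.

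Markers of other cells moved with these comparisons. Of 7 pluripotency markers, 1 (Esrrb) was higher in KO cells at day 8 and 6 at day 15 (median 2.44), and their summed intensity at day 15 was 674 and 1776 in WT and 7815 and 6745 in KO cells. Of 9 measured fibroblast markers, 1 (Pdgfrb) was lower at day 8 and 5 at day 15 (median −2.01), with sums of 71357 and 53727 in WT and 10228.5 and 15076 in KO cells at day 15. Of 7 measured endoderm markers, none passed at day 8, and at day 15, 4 were lower and 1 higher. The sums at day 15 were 11703 and 22638 in WT and 6289 and 5322 in KO cells. Day 15 means in WT and KO cells were 6329 and 726 for Afp and 6884 and 2309 for Ttr. Those of Gata6 were 2169 and 502, and of Gata4 516 and 336. Means were higher in KO cells for Foxa2 (516 and 739), Sox17 (697 and 987) and Cxcr4 (59.9 and 207). The KO values of Foxa2 and Sox17 lay inside the WT range. Of 8 neuron markers, 1 (Stmn2) was higher at day 8, and 2 were higher and 1 lower at day 15. Their sums at day 15 were 627 and 1151 in WT and 3924 and 3240 in KO cells. In ES cells at day 0, on arrays scaled apart, the sums were 7436 and 7242 in WT and 7205 and 8722 in KO cells. Stmn2 alone had day 0 means of 4872 and 5314, so these sums are not specific to neurons. Of 8 endothelial markers, none passed at day 8 and 7 were lower at day 15. Of 6 measured kidney markers, 2 were lower and 1 higher at day 15, Osr1, Wt1 and Sall1, which the intermediate mesoderm list also holds. No measured marker was at 0 on any array. The part of these cells in the values of Lhx1, Eomes and the others was not tested.

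Among the factors, log2 values over the 8 arrays of days 8 and 15 ran together for Eomes and Lhx1 (1421951_at, Pearson r = 0.97), Evx1 and Mesp1 (0.97) and Eomes and Gsc (0.94), less so for Evx1 and Eomes (0.61), and in opposite directions for Foxc2 and Gsc (−0.89). The 8 arrays fall into 4 groups, so these are descriptions. Among all other genes, those with the highest r with Eomes (1435172_at) were Rrs1 (0.997), Hspd1 (0.996) and Ipo5 (0.994). With Gsc they were Rhebl1 (0.9965), Tex10 (0.9965) and Jakmip1 (0.994). With Lhx1 (1421951_at) they were Nup43 (0.997), Dhx29 (0.996) and Fgf8, a streak ligand (0.996). Fgf8 read 742 and 226 in WT and 669.8 and 564 in KO cells at day 8, and 47.2 and 58.8 in WT and 379 and 307 in KO cells at day 15. With Evx1 they were Alkbh8 (0.9815), Spin2c (0.979) and Gen1 (0.978).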

How the data were processed

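Total RNA of 12 samples was hybridised to Affymetrix mouse arrays. The authors deposited 1 linear intensity per probe set and array, made with the software and method of CapitalBio per the paper's methods and with MAS5 per the submitters' processing notes; for MAS5, version and settings: not given in the sources used here. Detection calls were not used. The 64 control probe sets of 45101 were left out. Intensities under 1 were set to 1, log2 transformed and fitted with limma 3.58.1 (statmod 1.5.0, R 4.3.3), with 1 mean per group over 12 arrays, an intensity trend and robust moderation. Tests were two-sided, with Benjamini-Hochberg adjustment over 45037 probe sets. The script was tested on simulated data. The number of arrays limits the precision. Genes were named from the platform annotation, where 34945 probe sets carry 1 symbol. Figures used matplotlib 3.10.9, and tables pandas 2.3.3 and numpy 2.4.6 in Python 3.11.15. Promoters came from RefSeq (GRCm38.p6).

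Members and gene lists were chosen with earlier results of these data known. Every array's value is given for members that passed a comparison and for the brightest probe set of each other member, others by range. Up to 3 genes per list are named by their day 15 difference among those that passed, and up to 3 genes per member by likeness of pattern. Genes named for day 8 calls, Fgf8 as an example and ratios to Eomes were chosen after their values were seen. Alternatives were an offset of 32, quantile normalization, median centring, brighter probe sets, moderation without trend and robustness, and a replicate block. Others were a fit of the compared arrays alone, a 1.8-fold rule, an unpaired t-test, other thresholds and leaving out each array.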

Additional observations from a re-analysis of the deposited data

Results flagged for a closer look

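The change from day 8 to day 15 differed between genotypes, by a test of that difference itself in limma, for 3 probe sets of 2 factors. On the log2 scale, KO minus WT, the difference was 3.12 for Lhx1 (1450428_at), 2.99 for Eomes (1435172_at) and 2.65 for Eomes (1426001_at), with adjusted p of 0.0381, 0.0465 and 0.0483. All 3 calls ended with the replicate block (adjusted p = 0.0517 to 0.0544), with an offset of 32, with quantile normalization, with only the 8 arrays compared in the fit and without WT day 15 replicate 1 or any one KO array of days 8 and 15. That of Eomes (1426001_at) also ended with only the brighter probe sets (0.0501). With 2 arrays a group, no group was large enough to be checked for a sample far from the others.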

How the results depend on the processing

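Of the 13 probe sets, 0 passed at day 0, 1 at day 8, 5 at day 15, 8 from day 8 to day 15 in WT cells, 0 in KO cells and 3 for the difference in change. The paper's methods name a t-test in general but no test for the arrays. Unadjusted, an unpaired t-test on log2 values called 3 at day 0, 4 for WT cells and 6 for KO cells. Of all probe sets it called 8.37%, 10.6% and 10.4%. Adjusted, it called 0 at day 8, 0 at day 15 and 0 for WT cells. In each of these it called 0 of all 45037 probe sets, so the zeros are not a result about the factors. The 1.8-fold rule took 4 at day 8 and 4 for KO cells, against 2.28% and 0.946% of all probe sets. At day 8 the count was 0 with a threshold of 0.01 and 0 with quantile normalization (Evx1 at adjusted p = 0.0506). It was also 0 with only the arrays compared, where 0 of all probe sets passed. With only the arrays compared it was 4 for WT cells and 5 for KO cells, with fewer arrays behind the spread. Of all probe sets, 367 passed for WT cells and 1273 for KO cells in that fit. For the difference in change it was 0 with a threshold of 0.01, 0 with an offset of 32 and 0 with quantile normalization. It was also 0 with only the arrays compared, where 29 of all probe sets passed, against 190 in the main fit. The zeros at a threshold of 0.01, with the offset and with quantile normalization are not set against calls over all probe sets. They are therefore not by themselves a result about the factors. Gsc at day 15 ended with the offset (adjusted p = 0.0505). The cause was not tested.

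Samples share only a replicate number: correlations of the deviations of same-numbered samples ran from −0.068 to 0.131. With the replicate block, 0 passed for the difference in change (adjusted p = 0.0517 to 0.0544), where 155 of all probe sets passed. The block changed no other count. The counts that follow, with 1 array left out, are not set against the calls over all probe sets in the same fits. Over all genes, the share called at day 8 rose without WT day 8 replicate 1 and fell without WT day 8 replicate 2. The counts therefore do not by themselves show a change specific to the factors. Leaving out 1 array at a time, the counts ran from 0 to 0 at day 0, 0 to 4 at day 8, 4 to 6 at day 15, 7 to 9 in WT cells, 0 to 0 in KO cells and 0 to 7 for the difference in change. There it was 5 without WT day 8 replicate 1, 7 without WT day 8 replicate 2, 3 without WT day 15 replicate 2 and 0 without WT day 15 replicate 1 or any one KO array of days 8 and 15. At day 8 it was 4 without WT replicate 1, 3 without WT replicate 2 and 0 without either KO array.

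Signs turned for 17 of 78 values, none of which passed with all arrays. Leaving out 1 array, the day 0 values ran from −0.29 to 0.12 for Mixl1, −0.27 to 0.60 for Evx1 and −0.11 to 0.26 for Foxc1 (1419485_at). At day 8 they ran from −0.83 to 0.47 and −0.84 to 0.43 for Eomes (1435172_at, 1426001_at), −0.16 to 1.03 for Gsc and −0.40 to 1.24 and −0.28 to 1.05 for Lhx1 (1421951_at, 1450428_at). At day 15 they ran from −0.21 to 0.30 for Evx1, −0.046 to 0.17 for Mesp1, −0.062 to 0.36 for Tbx6 and −0.24 to 0.017 for Foxc1 (1419485_at). Changes over time ran from −0.020 to 0.22 for Tbx6 in WT cells and −0.12 to 0.32 for Meox1 in KO cells, and differences in change from −0.21 to 0.49 and −0.082 to 0.17 for Foxc1 (1419486_at, 1419485_at) and −0.53 to 0.69 for Foxc2, which was −0.025 with the offset. Of 17 called values, 9 lost their call under at least 1 alternative and none changed sign. Ranking among probe sets with 1 symbol moved percentiles by 0.28 to 6.09 points.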
